A study of Rattus norvegicus with 20 samples.

Results

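The 37 genes described here are transcripts that mark microglia, the resident macrophages of the brain. They were taken by symbol from the deposited count table, with no threshold on a measured value. All 37 were found among the 17296 symbols of the table, and all 37 were among the 12846 genes that passed the filter on low counts. RNA was measured in the nucleus accumbens, the ventral striatal part of the reward circuit, in 20 male wild-type Sprague-Dawley rats aged 7 to 9 weeks, housed 2 to a cage. All of the rats, controls included, self-administered cocaine. Abx rats (n = 4) drank antibiotics, which kill most gut bacteria. SCFA rats (n = 6) drank short-chain fatty acids, products of bacterial fermentation. Abx_SCFA rats (n = 5) drank both, and H2O rats (n = 5) drank water. The labels do not name the antibiotics. No group without cocaine, and no measure of the microbiome, was analysed here.

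Microglia enter the brain from the yolk sac during development and keep themselves there by division. Their survival needs the receptor Csf1r, and their identity rests on the transcription factors Spi1 (also called PU.1) and Irf8. In the healthy brain they sense nucleotides and fractalkine through P2ry12 and Cx3cr1, tag synapses with complement and engulf debris, and their maturation depends in part on the gut microbiota, with short-chain fatty acids known in mice as a mediator.

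Library totals ran from 17525358 to 25366231 counts in Abx, from 17946132 to 25601695 in SCFA, from 18375538 to 25731636 in Abx_SCFA and from 18223766 to 22235777 in H2O. Levels are given in CPM, counts scaled to a common library size, and 3 counts in a library, the floor used here, correspond to between 0.115 and 0.171 CPM. The rat numbers in the labels start with 4 in all 11 SCFA and Abx_SCFA rats and with 2 or 3 in all Abx and H2O rats, so a difference between number series and an effect of the fatty acids cannot be told apart in comparisons across them. Markers of other cell types also differed between libraries. The summed level of 8 oligodendrocyte genes ran from 6376 to 13377 CPM in Abx, from 6000 to 23073 in SCFA, from 10968 to 19597 in Abx_SCFA and from 14177 to 21493 in H2O. The summed level of 7 cortical excitatory neuron genes, which the accumbens should largely lack, ran from 63.7 to 675 CPM in Abx, from 101 to 1407 in SCFA, from 171 to 464 in Abx_SCFA and from 6.72 to 334 in H2O. The part of these differences in the results below was not tested. The covariate fits given there use levels measured in the same libraries after treatment, so they cannot tell composition from treatment.

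Markers of lymphocytes, neutrophils and monocytes were low, and red cell genes were not among the lists examined. Of 9 lymphocyte genes in the table, 0 passed the filter, and their summed level was between 0.682 and 2.399 CPM in all libraries. Of 7 neutrophil and monocyte genes in the table only S100a9 passed, Elane was at 0 in every library, and the sum stayed between 0.245 and 3.71 CPM. Border macrophages, which line vessels and meninges and share many members with microglia, had detectable markers. The sum of 8 of their genes, Mrc1 and Cd163 among them, ran from 16.9 to 23.5 CPM in Abx, from 16.3 to 24.9 in SCFA, from 15.2 to 23.3 in Abx_SCFA and from 15.2 to 20.2 in H2O. The tissue is bulk tissue, so fewer microglia and less RNA per microglial cell cannot be told apart.

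Spi1 binds a purine-rich core, GAGGAA, and the promoters of members were searched for it because Spi1 is the lineage factor of these cells. RefSeq promoters of the GRCr8 assembly matched 26 of the 37 members, and the 250 bases before each start were read on both strands. The core was present in 16 of the 26 (61.5%), against 23.3% of all 33469 promoters. The longer form GAGGAAGT, which contains the core, was present in Cd37, Ctss, Cd53 and Cyth4, which is 15.4% of the 26 against 2.04% of all promoters. The Ets-IRF composite element, bound by Spi1 together with Irf8, was present in Cd68, which is 3.85% against 2.48%. A match is a description of the letters only. The 4 promoters with the longer form are shown first, followed by Csf1r, which carries the core at 2 places, and Cd68 with the composite. Each sequence runs 5′ to 3′ on the strand of its gene and ends at the base before the start. Capitals mark the matches, all of which lie on the opposite strand and so read as the reverse complement.
Cd37, chr1:104860785-104861034, minus strand: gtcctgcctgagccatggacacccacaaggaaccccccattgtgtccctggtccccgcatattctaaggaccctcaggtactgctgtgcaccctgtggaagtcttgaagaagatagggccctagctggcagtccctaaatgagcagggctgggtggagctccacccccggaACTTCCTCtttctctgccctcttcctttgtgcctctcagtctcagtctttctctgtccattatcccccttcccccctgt
Ctss, chr2:185775146-185775395, plus strand: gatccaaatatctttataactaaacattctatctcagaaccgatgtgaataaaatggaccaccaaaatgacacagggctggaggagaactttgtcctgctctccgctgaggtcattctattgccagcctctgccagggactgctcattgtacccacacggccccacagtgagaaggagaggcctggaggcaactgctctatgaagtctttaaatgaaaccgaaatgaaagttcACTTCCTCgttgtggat
Cd53, chr2:197087897-197088146, minus strand: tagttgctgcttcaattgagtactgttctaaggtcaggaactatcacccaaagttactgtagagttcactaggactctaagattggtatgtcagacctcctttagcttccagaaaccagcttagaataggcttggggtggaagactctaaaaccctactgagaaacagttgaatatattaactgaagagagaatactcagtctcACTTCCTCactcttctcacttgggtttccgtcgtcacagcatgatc
Cyth4, chr7:112032532-112032781, plus strand: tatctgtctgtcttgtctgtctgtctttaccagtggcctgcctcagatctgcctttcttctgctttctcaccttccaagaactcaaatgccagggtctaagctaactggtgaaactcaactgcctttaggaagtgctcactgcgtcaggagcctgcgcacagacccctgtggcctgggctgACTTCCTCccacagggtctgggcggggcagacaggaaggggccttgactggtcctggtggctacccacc
Csf1r, chr18:56834129-56834378, plus strand: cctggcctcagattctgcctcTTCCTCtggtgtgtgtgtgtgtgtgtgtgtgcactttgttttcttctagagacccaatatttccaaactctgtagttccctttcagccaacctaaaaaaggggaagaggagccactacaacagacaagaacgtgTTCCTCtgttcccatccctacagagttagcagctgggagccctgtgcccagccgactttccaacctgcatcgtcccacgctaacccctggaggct
Cd68, chr10:54882442-54882691, minus strand: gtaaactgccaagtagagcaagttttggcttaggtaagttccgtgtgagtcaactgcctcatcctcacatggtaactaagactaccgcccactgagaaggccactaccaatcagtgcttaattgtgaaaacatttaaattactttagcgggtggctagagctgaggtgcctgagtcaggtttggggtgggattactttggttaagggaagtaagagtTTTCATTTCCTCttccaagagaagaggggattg

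In Ctss the longer form began 17 bases before the start, in Cd53 46 bases, in Cyth4 69 bases and in Cd37 79 bases. The composite in Cd68 began 33 bases before the start and overlapped the core there. The 2 cores of Csf1r began 229 and 95 bases before the start. The proteins of these genes have different roles, from a lysosomal protease (Ctss) and its fellow lysosomal protein Cd68 to tetraspanins of the cell surface (Cd37, Cd53), a guanine exchange factor for Arf proteins (Cyth4) and a growth factor receptor (Csf1r).

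The lineage factors came first in the order of roles. Irf8 had 9.08, 7.19, 7.41 and 9.07 CPM in the 4 Abx libraries. In SCFA it had a lowest value of 6.69, a median of 8.14 and a highest of 9.70 CPM. It had 8.81, 7.89, 8.22, 6.26 and 8.91 CPM in Abx_SCFA, and 9.94, 8.01, 9.04, 5.54 and 10.1 CPM in H2O. The H2O libraries alone spanned a wider range than any treated group, so all groups overlapped. The log2 fold changes against H2O were -0.05 ± 0.16 in Abx, -0.08 ± 0.14 in SCFA and -0.08 ± 0.15 in Abx_SCFA (SE). Spi1 averaged 7.28 ± 0.722 CPM in Abx (SD, n = 4), 7.44 ± 0.834 in SCFA (n = 6), 7.76 ± 1.13 in Abx_SCFA (n = 5) and 7.45 ± 1.59 in H2O (n = 5). The spread within H2O was larger than any difference between these means.

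Csf1r, the receptor for the growth factors Csf1 and Il34, was measured with 2489 to 4400 counts per library. It had 154, 153, 149 and 157 CPM in Abx, and a lowest value of 137, a median of 178 and a highest of 193 CPM in SCFA. It had 187, 146, 151, 146 and 164 CPM in Abx_SCFA, and 177, 142, 173, 147 and 208 CPM in H2O. The 4 Abx values lay close together and inside the range of H2O, and SCFA held both high and low libraries. Csf3r, the receptor for the granulocyte growth factor, averaged 8.76 ± 0.873 CPM in Abx, 8.95 ± 0.766 in SCFA, 8.38 ± 1.31 in Abx_SCFA and 8.65 ± 1.73 in H2O (SD).

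Among the sensing receptors and identity genes, Cx3cr1, the receptor for the neuronal chemokine fractalkine, had 32.1, 28.1, 30.3 and 36.5 CPM in Abx. In SCFA its lowest, median and highest values were 29.1, 32.0 and 37.3 CPM. It had 37.3, 30.4, 31.5, 31.7 and 35.2 CPM in Abx_SCFA and 33.1, 30.6, 38.8, 32.3 and 46.2 CPM in H2O. A single H2O library, replicate 5, stood above all others. P2ry12, the ADP receptor that steers microglial processes to injury, ranged from 16.9 to 18.5 CPM in Abx, from 13.5 to 22.5 in SCFA, from 17.2 to 23.6 in Abx_SCFA and from 18.0 to 22.7 in H2O. Only 1 of the 4 Abx libraries reached the lowest H2O value, and the log2 fold change was -0.20 ± 0.13 (SE) with an unadjusted p of 0.121 (edgeR). P2ry13, a related receptor encoded beside P2ry12 on chromosome 2, lay between 4.15 and 6.89 CPM over all libraries.

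Tmem119, a surface protein used to tell microglia from other macrophages, ranged from 18.5 to 29.5 CPM in Abx, from 24.3 to 34.2 in SCFA, from 15.8 to 32.3 in Abx_SCFA and from 14.2 to 32.5 in H2O. Its log2 fold change in SCFA vs H2O was 0.41 ± 0.20 (SE), the highest of any member in that comparison, with an unadjusted p of 0.0525 and an adjusted p of 0.368 (edgeR). Gpr34, a lysophosphatidylserine receptor, averaged 21.4 ± 1.08 CPM in Abx, 22.5 ± 3.57 in SCFA, 23.6 ± 4.16 in Abx_SCFA and 23.3 ± 2.35 in H2O (SD). Aif1, the calcium-binding protein Iba1 used to stain microglia, averaged 16.05 ± 3.73, 17.5 ± 1.63, 18.2 ± 2.64 and 16.8 ± 2.37 CPM in Abx, SCFA, Abx_SCFA and H2O. For both genes the groups overlapped throughout.

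Trem2, a receptor for lipids and apolipoproteins, signals through the adaptor Tyrobp, and Fcer1g is the sister adaptor that serves Fc receptors. Fcer1g had 15.2, 12.3, 14.4 and 14.3 CPM in Abx. Its lowest, median and highest values in SCFA were 13.2, 17.2 and 18.2 CPM. It had 17.6, 15.7, 17.1, 15.0 and 18.2 CPM in Abx_SCFA, and 22.2, 16.3, 15.98, 13.3 and 21.0 CPM in H2O. The 4 Abx libraries lay below 4 of the 5 H2O libraries, and those of Abx_SCFA lay above all but the highest of them. The log2 fold change in Abx vs H2O was -0.34 ± 0.13 (SE), with an unadjusted p of 0.0147 and an adjusted p of 0.563 (edgeR). Tyrobp ranged from 8.77 to 10.4 CPM in Abx, from 6.92 to 14.3 in SCFA, from 10.5 to 12.4 in Abx_SCFA and from 9.82 to 14.9 in H2O. Its Abx and Abx_SCFA values did not overlap, which was the case for 1 of 37 members and for 0.732% of all genes tested in that direction, with a log2 fold change of 0.22 ± 0.16 and an unadjusted p of 0.174. Trem2 averaged 13.1 ± 0.994 CPM in Abx, 14.1 ± 2.41 in SCFA, 15.3 ± 1.62 in Abx_SCFA and 13.6 ± 1.26 in H2O (SD).

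C1qa, C1qb and C1qc encode the 3 chains of C1q, the recognition unit of the classical complement pathway, and lie side by side on chromosome 5. C1qa had 89.4, 90.9, 78.3 and 85.3 CPM in Abx, and a lowest value of 69.0, a median of 98.2 and a highest of 113 CPM in SCFA. It had 91.7, 84.1, 103, 80.2 and 105 CPM in Abx_SCFA, and 112, 83.2, 87.3, 84.5 and 111 CPM in H2O. All 4 groups overlapped, and in H2O replicates 1 and 5 were apart from the other 3. C1qb averaged 42.3 ± 2.44, 46.2 ± 6.35, 45.7 ± 4.57 and 45.3 ± 7.31 CPM in Abx, SCFA, Abx_SCFA and H2O, and C1qc averaged 29.4 ± 2.05, 28.7 ± 4.40, 28.7 ± 2.27 and 29.3 ± 3.81 CPM in the same order (SD). C3, the central complement protein, which several brain cell types can make, had wider ranges. It ranged from 43.2 to 94.0 CPM in Abx, from 48.7 to 96.6 in SCFA, from 40.3 to 104 in Abx_SCFA and from 59.2 to 118 in H2O. Its log2 fold change in Abx vs H2O, -0.54 ± 0.28 (SE), was the lowest of the members, with an unadjusted p of 0.0691 (edgeR).

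Itgam and Itgb2 form the complement receptor CR3, through which microglia take up C3-tagged material, and Apbb1ip links Ras-family signals to integrin activation. Itgb2 had 14.9, 12.5, 13.8 and 13.6 CPM in Abx. Its lowest, median and highest values in SCFA were 11.5, 14.8 and 20.6 CPM. It had 20.6, 14.0, 15.5, 16.1 and 15.0 CPM in Abx_SCFA and 18.4, 13.2, 18.2, 14.8 and 22.6 CPM in H2O. The Abx values were close together, and 3 of 5 H2O libraries stood above all Abx libraries. Apbb1ip had 14.6, 11.0, 12.2 and 13.4 CPM in Abx. In SCFA it ran from 12.3 over a median of 13.9 to 15.9 CPM. It had 16.4, 14.7, 14.4, 14.6 and 15.0 CPM in Abx_SCFA and 15.2, 12.8, 15.3, 14.8 and 19.0 CPM in H2O. Abx replicates 2 and 3 were the lowest of all libraries, Abx replicate 4 lay among SCFA and H2O libraries, and Abx replicate 1 reached the Abx_SCFA values. Itgam ranged from 26.5 to 31.9 CPM in Abx, from 21.6 to 38.2 in SCFA, from 26.2 to 46.2 in Abx_SCFA and from 27.1 to 47.7 in H2O.

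Selplg, a ligand for selectins encoded next to Tmem119 on chromosome 12, had 34.7, 46.8, 38.5 and 33.7 CPM in Abx, and 35.6, 46.8 and 52.9 CPM as the lowest, median and highest values in SCFA. It had 43.0, 37.8, 37.6, 34.5 and 54.0 CPM in Abx_SCFA and 37.7, 28.7, 50.1, 31.7 and 48.3 CPM in H2O. Each group held both high and low libraries.

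**Figure D1:**
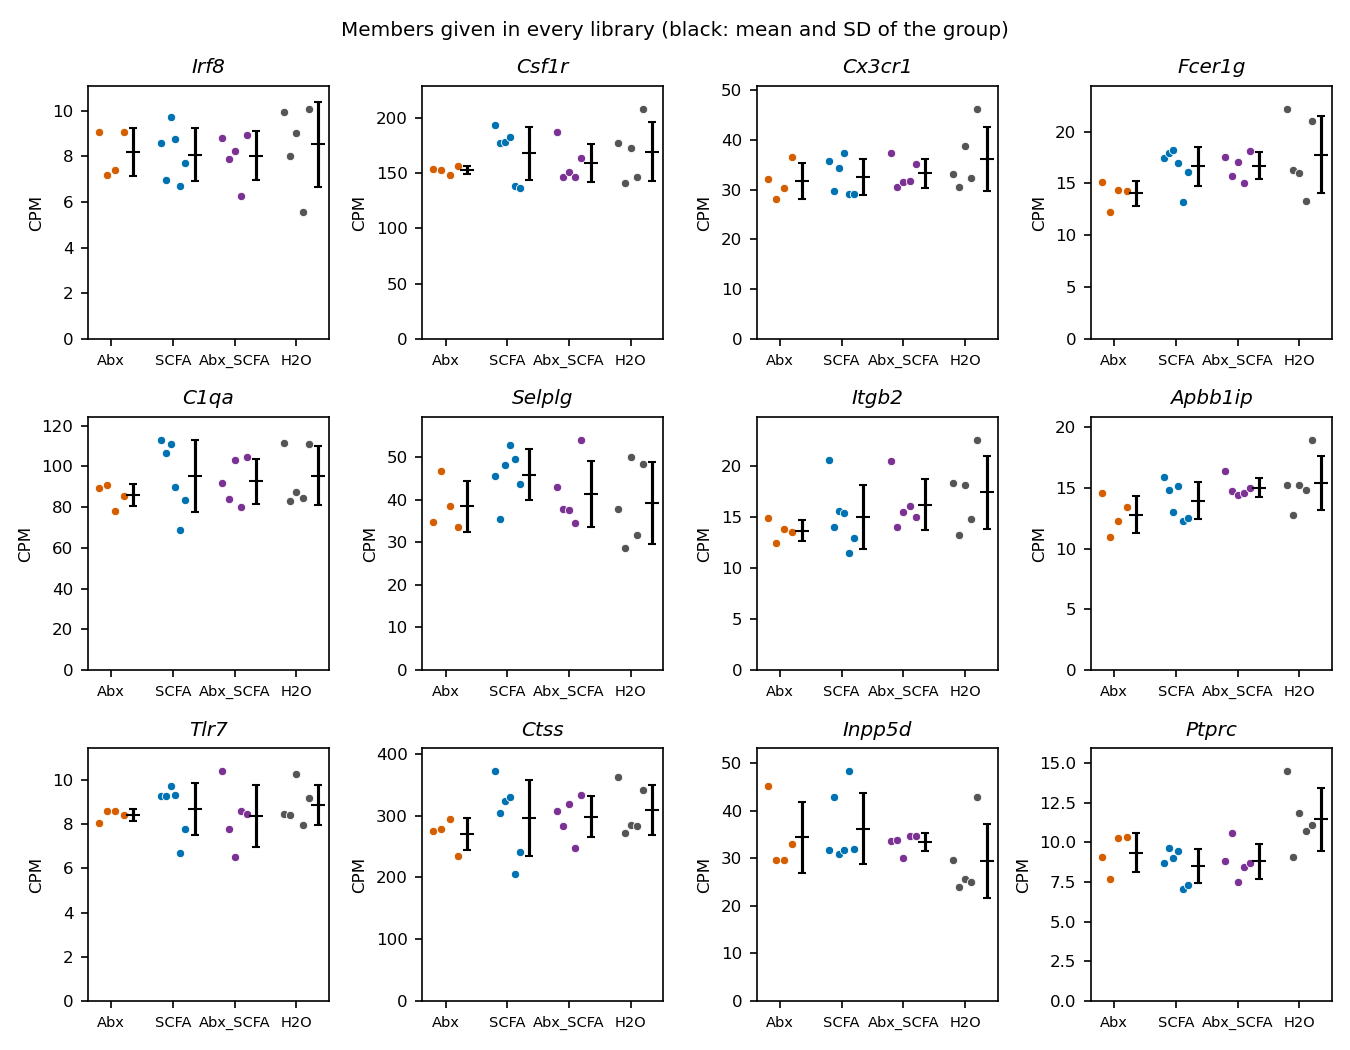
CPM of 12 members (y axis, from 0) in every library of the 4 groups (x axis), with the group mean and SD in black; n is 4 in Abx, 6 in SCFA, 5 in Abx_SCFA and 5 in H2O. Fcer1g, Itgb2 and Apbb1ip have their lowest mean in Abx, Ptprc has its highest in H2O, where it reaches 14.5 CPM, and the groups overlap in each comparison of these 12 genes.

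The Toll-like receptors, which recognise microbial products, and their partners make up the next block. Tlr7, a sensor of single-stranded RNA, had 8.06, 8.61, 8.60 and 8.40 CPM in Abx, and 6.69, 9.28 and 9.70 CPM as the lowest, median and highest values in SCFA. It had 10.4, 7.78, 6.52, 8.61 and 8.45 CPM in Abx_SCFA and 8.47, 8.41, 10.3, 7.98 and 9.17 CPM in H2O. The group means differed by less than the SD of SCFA, Abx_SCFA or H2O. Tlr2, a receptor for bacterial lipoproteins, averaged 6.14 ± 0.985, 6.58 ± 1.05, 6.04 ± 0.506 and 6.63 ± 0.827 CPM in Abx, SCFA, Abx_SCFA and H2O (SD). Tlr4, the endotoxin receptor, averaged 2.96 ± 0.355, 2.53 ± 0.679, 2.88 ± 0.376 and 2.94 ± 0.0759 CPM in the same order. Its co-receptor Cd14 was the rarest member, with only 7 to 28 counts in a library, with SE between 0.28 and 0.30 for its pairwise log2 fold changes. Ly86, the partner of the Toll-like protein Cd180, was measured with 26 to 82 counts.

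Ctss, cathepsin S, a lysosomal protease that cuts the invariant chain of MHC class II, had the most counts of all members, 4393 to 8730 in a library. It had 274, 279, 295 and 234 CPM in Abx, and 206, 314 and 372 CPM as the lowest, median and highest values in SCFA. It had 308, 284, 318, 248 and 334 CPM in Abx_SCFA and 363, 272, 285, 283 and 342 CPM in H2O. The SCFA libraries alone covered the whole range of the study. Laptm5, a lysosomal membrane protein, averaged 38.4 ± 2.75, 39.3 ± 5.73, 42.3 ± 5.54 and 42.5 ± 5.62 CPM in Abx, SCFA, Abx_SCFA and H2O (SD). Mertk, a receptor for engulfment of apoptotic cells that astrocytes also express, averaged 50.2 ± 5.21, 47.6 ± 4.68, 48.3 ± 8.50 and 45.8 ± 5.19 CPM in that order. Cd68 was rare, with 31 to 70 counts in a library.

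Ptprc, which encodes CD45, the phosphatase on all nucleated blood-lineage cells, was the member with the smallest unadjusted p. It had 9.08, 7.71, 10.3 and 10.3 CPM in Abx. In SCFA its lowest, median and highest values were 7.08, 8.84 and 9.62 CPM. It had 8.81, 10.6, 7.50, 8.42 and 8.68 CPM in Abx_SCFA and 14.5, 9.06, 11.9, 10.7 and 11.1 CPM in H2O. The H2O libraries were high, and 4 of the 5 stood above every other library of the study. Inpp5d, the inositol phosphatase SHIP1 that acts below Trem2, had 45.2, 29.6, 29.7 and 33.0 CPM in Abx and 30.8, 31.8 and 48.3 CPM as the lowest, median and highest values in SCFA. It had 33.6, 33.9, 30.0, 34.7 and 34.7 CPM in Abx_SCFA and 29.7, 24.0, 25.6, 25.01 and 42.9 CPM in H2O. A high library stood apart in Abx, in H2O and in SCFA, the last with a pair of them. Ptpn6, the phosphatase SHP-1, averaged 11.1 ± 2.48, 12.1 ± 2.51, 11.9 ± 1.60 and 12.03 ± 1.02 CPM in Abx, SCFA, Abx_SCFA and H2O (SD). Of the remaining genes of this kind, Cd53 lay between 9.47 and 14.9 CPM over all libraries, Cd37 between 5.59 and 9.32, Cyth4 between 15.7 and 25.8, and Arhgdib between 12.1 and 21.4.

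**Figure D2:**
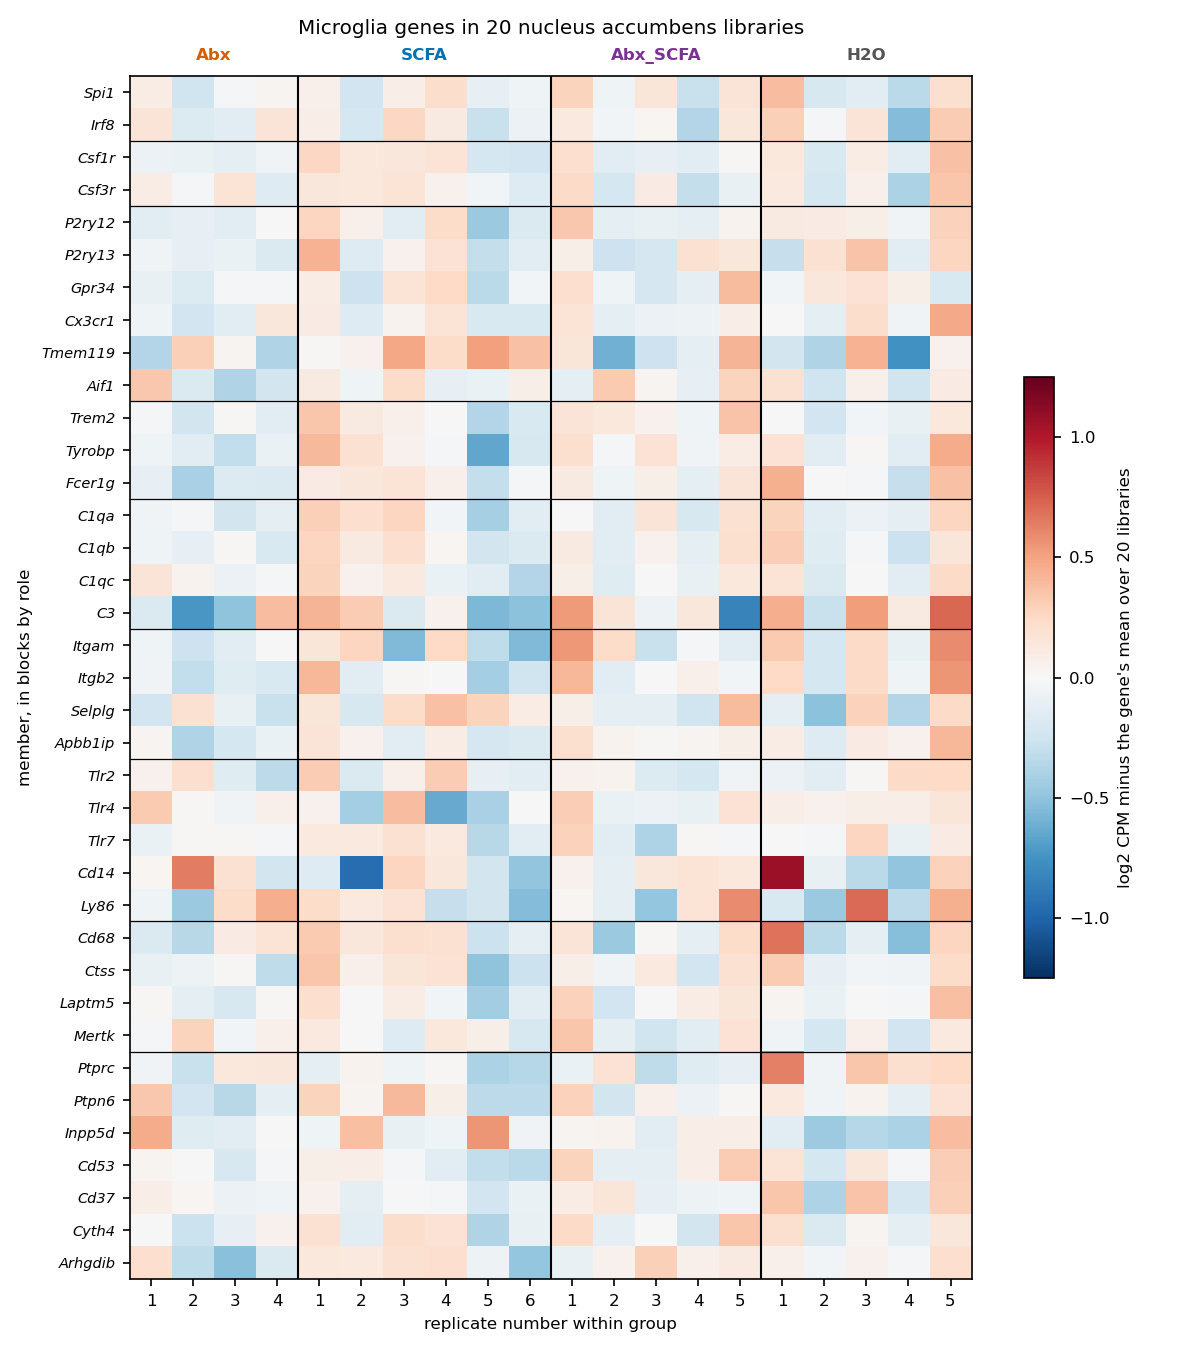
Log2 CPM of the 37 members (rows, in blocks by role) in 20 libraries (columns, by group and replicate), each less the gene's own mean over the libraries; red is above and blue below that mean. H2O replicate 5 is above the mean for 36 of 37 members, and SCFA replicates 5 and 6 are below it for 33 and 34.

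The libraries of a group differed from each other. Averaged over the 37 members, log2 CPM was 3.96 in Abx (range 3.91 to 4.04), 4.02 in SCFA (3.80 to 4.21), 4.05 in Abx_SCFA (3.95 to 4.20) and 4.07 in H2O (3.87 to 4.30). The SD over libraries was 0.0588 in Abx, 0.162 in SCFA, 0.118 in Abx_SCFA and 0.198 in H2O, so Abx was the narrowest group. SCFA replicate 1 was above the gene's own mean for 34 members, Abx_SCFA replicate 1 for 33 and H2O replicate 5 for 36. Below the mean were 33 members in SCFA replicate 5, 34 in SCFA replicate 6, 32 in H2O replicate 2 and 31 in H2O replicate 4. In the 4 Abx libraries 21, 27, 27 and 24 members were below it.

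Abx was compared with H2O to ask how antibiotics, given to deplete the microbiome, bear on these transcripts. Of the 37 members, 31 had a negative and 6 a positive log2 fold change, against 52.3% of all genes with a negative and 47.7% with a positive one. The median was -0.11 for the members and -0.0083 for all genes. Members ran from -0.54 for C3 to 0.23 for Inpp5d. By role, all 3 Trem2 and Fc receptor adaptor genes were negative (median -0.23), as were all 4 integrin and adhesion genes (median -0.28), while C1qc, Tlr4, Csf3r, Tmem119, Mertk and Inpp5d were positive. In edgeR's quasi-likelihood test 0 of 37 members passed an adjusted p of 0.05, and the same held for 0% of all genes. At an unadjusted p below 0.05 there were 4 members, all lower in Abx, against 8.79% of all genes in either direction, 5.53% lower and 3.26% higher. They were Fcer1g, Itgb2 with -0.35 ± 0.16 (SE, adjusted p = 0.563), Apbb1ip with -0.26 ± 0.11 (adjusted p = 0.563) and Ptprc with -0.29 ± 0.13 (adjusted p = 0.563). Unadjusted, edgeR's p was 0.0398 for Itgb2, 0.0237 for Apbb1ip and 0.0426 for Ptprc. In 0 members did the Abx and H2O values not overlap, against 1.57% of all genes lower and 0.887% higher. DESeq2 and limma-voom also called 0 members, and had 5 and 3 at an unadjusted p below 0.05. Over all 12846 genes they called 1 and 0, and had 1180 and 1101 at that unadjusted level. Without Abx replicate 2 the unadjusted count was 0, and without H2O replicate 1 or H2O replicate 5 it was 1.

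The members' median difference had the same sign in both number series, but the members vary together and the libraries are few. In mean log2 CPM of the members, H2O replicates 2 and 4 (both 3.87) lay below both Abx libraries of their series. These were at 4.04 and 3.91 for numbers from 2, and at 3.92 and 3.98 for numbers from 3. Among rats with numbers from 2, with 2 Abx and 2 H2O libraries, the members' median difference was -0.07, and 24 members were lower and 13 higher in Abx, against 53.5% of all genes lower. Among rats with numbers from 3, with 2 Abx and 3 H2O libraries, it was -0.19, with 30 lower and 7 higher, against 50.2% of all genes lower. Other cell types moved along with it. All 8 oligodendrocyte genes had negative log2 fold changes in Abx vs H2O (median -0.64), and all 7 cortical neuron genes had positive ones (median 2.28). With the mean level of the oligodendrocyte genes as a covariate, the members' median was -0.0075, with 20 negative and 17 positive. With that of the cortical genes it was -0.03, with 21 negative and 16 positive. The summed oligodendrocyte level did not overlap between Abx (6376 to 13377 CPM) and H2O (14177 to 21493 CPM). That covariate therefore largely follows the grouping, and its fit cannot tell cell composition from antibiotics.

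SCFA was compared with H2O for the effect of fatty acids without antibiotics. The members' median log2 fold change was -0.05 (all genes -0.0030), with 27 negative and 10 positive, against 51.1% of all genes negative and 48.9% positive. All 5 genes of the block of Toll-like receptors and their partners were negative (median -0.17). The rare partners Cd14 and Ly86 had -0.38 ± 0.28 and -0.17 ± 0.24 (SE). The receptors Tlr4, Tlr7 and Tlr2 had -0.22 ± 0.16, -0.03 ± 0.11 and -0.01 ± 0.12 (SE). Tmem119, Inpp5d with 0.30 ± 0.16 and Selplg with 0.23 ± 0.15 (SE) were the highest. In edgeR 0 of 37 members passed the adjusted threshold (0% of all genes). Ptprc alone had an unadjusted p below 0.05, against 13.8% of all genes, 5.58% lower and 8.2% higher. The values overlapped in all 37 members, and did not in 0.249% of all genes lower and 0.288% higher. Its log2 fold change was -0.42 ± 0.12 (SE), with an unadjusted p of 0.00225 and an adjusted p of 0.247 (edgeR). DESeq2 gave it an adjusted p of 0.0860, and DESeq2 and limma-voom had 2 members each at an unadjusted p below 0.05 and 0 called. Of all genes DESeq2 called 10 and limma-voom 0, with 1873 and 1619 at that unadjusted level. Adjusted p for Ptprc ranged from 0.0860 to 0.999 over all settings tried. Of other cell types, 8 of 8 medium spiny neuron genes had a negative value in SCFA vs H2O (median -0.35), 8 of 8 oligodendrocyte genes a negative one (median -0.19) and 7 of 7 cortical genes a positive one (median 2.73). With the oligodendrocyte covariate the members' median was -0.0076, with 19 negative and 18 positive. With the cortical covariate it was 0.0072, with 18 negative and 19 positive.

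Abx_SCFA was compared with H2O for both treatments together. The members' median was -0.04 (all genes -0.0071), with 25 negative and 12 positive, against 52.4% of all genes negative and 47.6% positive. In edgeR 0 members passed the adjusted threshold (0% of all genes), and Ptprc alone had an unadjusted p below 0.05, against 5.56% of all genes, 3.46% lower and 2.09% higher. The values overlapped in all 37 members, and did not in 0.755% of all genes lower and 0.669% higher. Its log2 fold change was -0.38 ± 0.13 (SE), with an unadjusted p of 0.00699 and an adjusted p of 0.815. DESeq2 and limma-voom had 1 member each at an unadjusted p below 0.05 and 0 called, beside 1 and 0 of all genes called and 759 and 715 at that unadjusted level. Ptprc had negative values in each treated group vs H2O, but these comparisons share the 5 H2O libraries and are not independent. Trem2 and Inpp5d had the highest values, both 0.18. Of other cell types, 8 of 8 oligodendrocyte genes had a negative value (median -0.38), and 7 of 7 cortical genes (median 1.79), 6 of 6 endothelial genes (median 0.17) and 7 of 7 border macrophage genes (median 0.27) a positive one. With the oligodendrocyte covariate the members' median was 0.03, with 13 negative and 24 positive, and with the cortical covariate 0.01, with 14 negative and 23 positive, so the sign of the median turned under both.

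Abx_SCFA was compared with Abx for fatty acids given to rats on antibiotics. Here the members' median was 0.10 (all genes -0.00034), with 26 positive and 11 negative, against 49.9% of all genes positive and 50.1% negative. All 6 sensing receptor and identity genes were positive (median 0.11), as were all 3 Trem2 and Fc receptor adaptor genes (median 0.23) and all 4 integrin and adhesion genes (median 0.22). The 5 genes of Toll-like receptors and their partners lay between -0.11 for Cd14 and -0.000041 for Ly86, both rare partners. The highest members were Arhgdib with 0.27 ± 0.14, Fcer1g with 0.25 ± 0.13, Itgb2 with 0.24 ± 0.16 and C3 with 0.24 ± 0.28 (SE). In edgeR 0 members passed the adjusted threshold (0% of all genes). Apbb1ip alone had an unadjusted p below 0.05, with 0.23 ± 0.11 (SE, adjusted p = 0.999), against 3.19% of all genes, 1.85% higher and 1.34% lower. Beside Tyrobp, no member had values that did not overlap, against 0.467% of all genes lower. DESeq2 and limma-voom had 0 members at an unadjusted p below 0.05 and 0 called, beside 0 of all genes called by either and 438 at that unadjusted level in DESeq2. This comparison shares the Abx libraries with Abx vs H2O. All 6 endothelial genes had a positive value (median 0.27), 5 of them at an unadjusted p below 0.05, as did all 8 oligodendrocyte genes (median 0.24), and all 7 cortical genes had a negative one (median -0.43). With the cortical covariate the members' median was 0.09, with 27 positive and 10 negative. With the oligodendrocyte covariate the members' median was 0.03, with 22 positive and 15 negative, and without Abx_SCFA replicate 1 it was also 0.03.

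Abx_SCFA was compared with SCFA for antibiotics in rats that drank fatty acids. The members' median was 0.04 (all genes -0.012), with 24 positive and 13 negative, against 45.5% of all genes positive and 54.5% negative. Values ran from -0.32 ± 0.20 for Tmem119 to 0.26 ± 0.28 for Cd14 (SE). In edgeR 0 members passed the adjusted threshold (0% of all genes), and 0 had an unadjusted p below 0.05, against 6.78% of all genes, 2.72% higher and 4.06% lower. The values overlapped in all 37 members, and did not in 0.265% of all genes higher and 0.296% lower. DESeq2 and limma-voom likewise had 0 by both criteria, beside 3 and 0 of all genes called and 962 and 830 at that unadjusted level. The closest was Cd53 with 0.20 ± 0.11 and an unadjusted p of 0.078. Of other cell types, 8 of 8 medium spiny neuron genes had a positive value (median 0.40), 6 of them at an unadjusted p below 0.05, while 7 of 7 cortical genes (median -0.85) and 8 of 8 oligodendrocyte genes (median -0.19) had a negative one. With the oligodendrocyte covariate the members' median was 0.05, with 28 positive and 9 negative, and with the cortical covariate 0.03, with 22 positive and 15 negative.

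**Figure D3:**
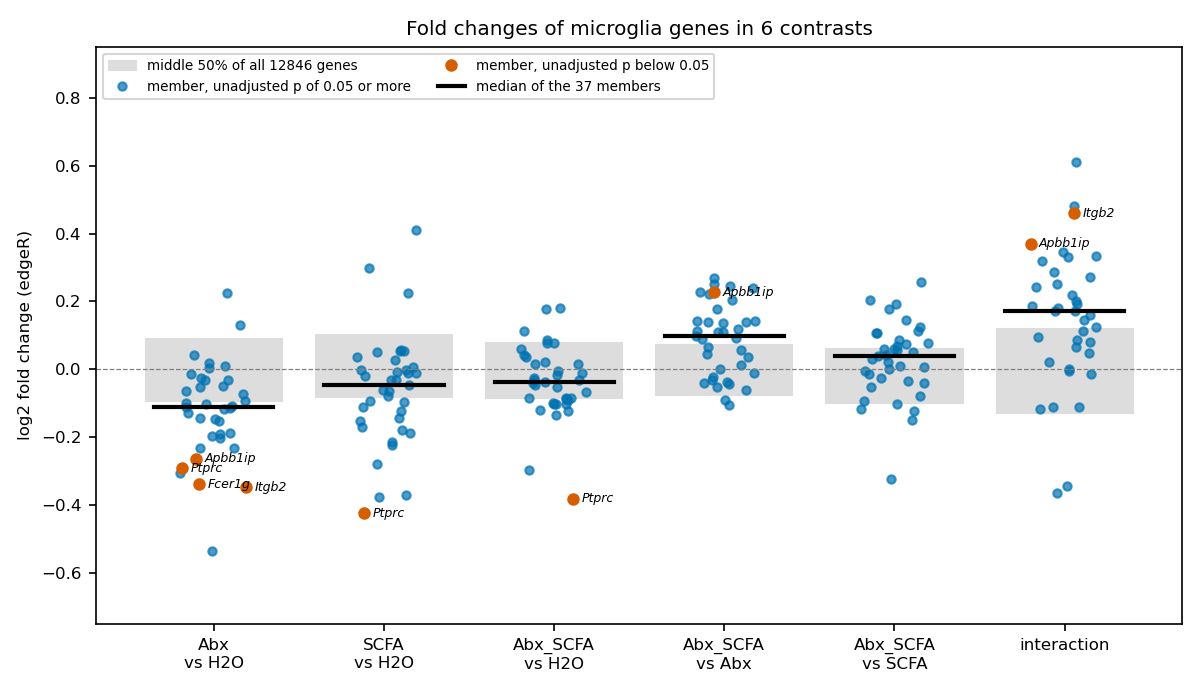
Log2 fold change of each of the 37 members (points, y axis) in 6 contrasts (x axis), with the members' median as a black line and the middle 50% of all genes tested as a grey band. The median is -0.11 in Abx vs H2O, 0.10 in Abx_SCFA vs Abx and 0.17 in the interaction, and between -0.05 and 0.04 in the other contrasts; labelled points have an unadjusted p below 0.05.

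The interaction asks whether antibiotics act differently with and without fatty acids, as Abx_SCFA minus SCFA less Abx minus H2O. It was positive for 30 members and negative for 7, against 51.8% of all genes positive and 48.2% negative, with a median of 0.17 (all genes 0.0069). The highest values were 0.61 ± 0.37 for C3, 0.48 ± 0.27 for Itgam and 0.46 ± 0.21 for Itgb2, and the lowest were -0.37 ± 0.29 for Tmem119 and -0.34 ± 0.23 for Inpp5d (SE). Both chains of CR3 and its ligand C3 were positive, as were most members, and unadjusted p was 0.117 for C3 and 0.0905 for Itgam (edgeR). The C1q chains had 0.11 ± 0.18 (C1qa), 0.09 ± 0.15 (C1qb) and -0.0043 ± 0.15 (C1qc, SE). In edgeR 0 members passed the adjusted threshold (0% of all genes), with a smallest adjusted p of 0.622. At an unadjusted p below 0.05 were Itgb2 (adjusted p = 0.626) and Apbb1ip (0.37 ± 0.15, adjusted p = 0.622), against 7.85% of all genes, 2.83% higher and 5.01% lower. DESeq2 and limma-voom had 2 members each at that level and 0 called, beside 0 of all genes called by either and 1112 and 900 at that level. The cortical genes had an interaction of the opposite sign (7 of 7 negative, median -3.14) and the oligodendrocyte genes one of the same sign (8 of 8 positive, median 0.47). With the oligodendrocyte covariate the members' median was 0.07, and with the cortical covariate 0.04, each with 24 positive and 13 negative. Without Abx_SCFA replicate 5 it was 0.08.

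**Figure D4:**
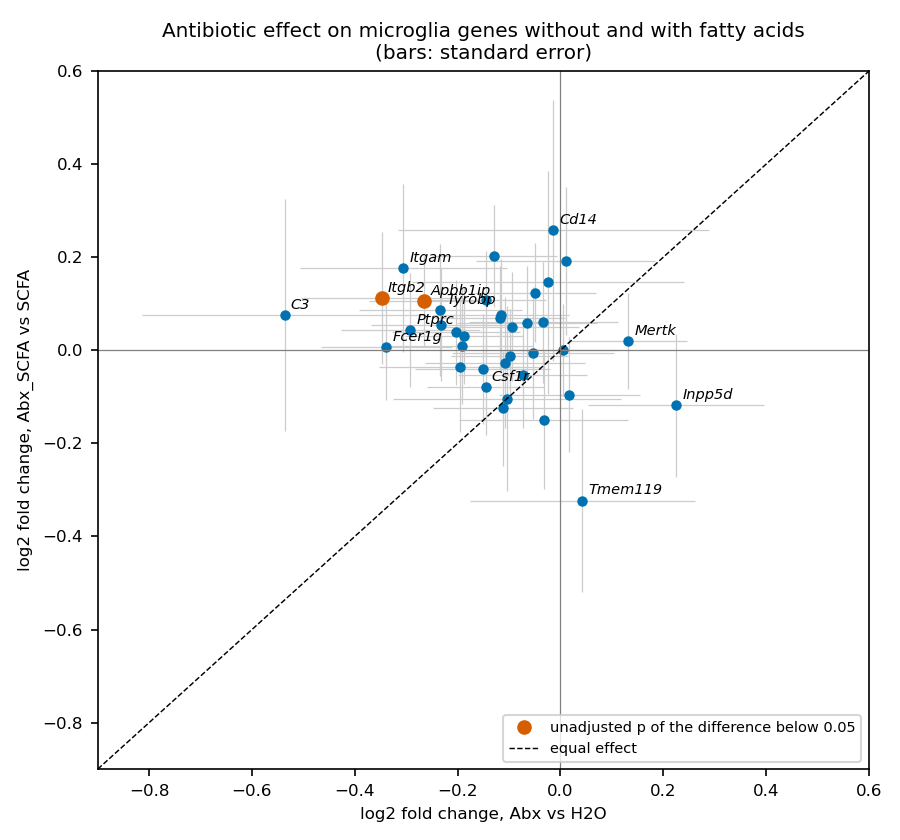
Log2 fold change of the members with antibiotics among rats without fatty acids (Abx vs H2O, x axis) and among rats with them (Abx_SCFA vs SCFA, y axis), with standard errors as bars and equal effects on the dashed line. The comparisons share no library; 31 members are left of 0 on the x axis and 24 above 0 on the y axis, and Itgb2 and Apbb1ip have an unadjusted p of the difference below 0.05.

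A test of any difference among the 4 groups called 0 of 37 members in edgeR (0% of all genes). Ptprc alone had an unadjusted p below 0.05 (adjusted p = 0.581), against 8.29% of all genes, and DESeq2 and limma-voom had 1 member each at that level and 0 called, beside 5 and 0 of all genes called and 1403 and 898 at that level. No member had a log2 fold change of 1 or more in size in any contrast. The SE of the members ran from 0.10 to 0.31 for the 5 pairwise contrasts.

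The members varied together from rat to rat. After the group means were removed, each member was correlated with the mean of the other 36 over the 20 libraries, which share depth and tissue composition, so the values are a description. The median Pearson r was 0.73, and 25 of 37 members (67.6%) were above 0.5, against 10.5% of 11984 other genes with at least 1 CPM correlated with the members' mean. Above 0.7 were 20 members (54.1%), against 1.49% of other genes. Csf1r followed the mean most closely (r = 0.95), then Itgb2 (0.88), C1qc (0.86), C1qb (0.85) and Cd53 (0.84). Without the 2 libraries farthest from their group means, H2O replicate 5 and SCFA replicate 5, the median r was 0.65, with 25 members still above 0.5.

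**Figure D5:**
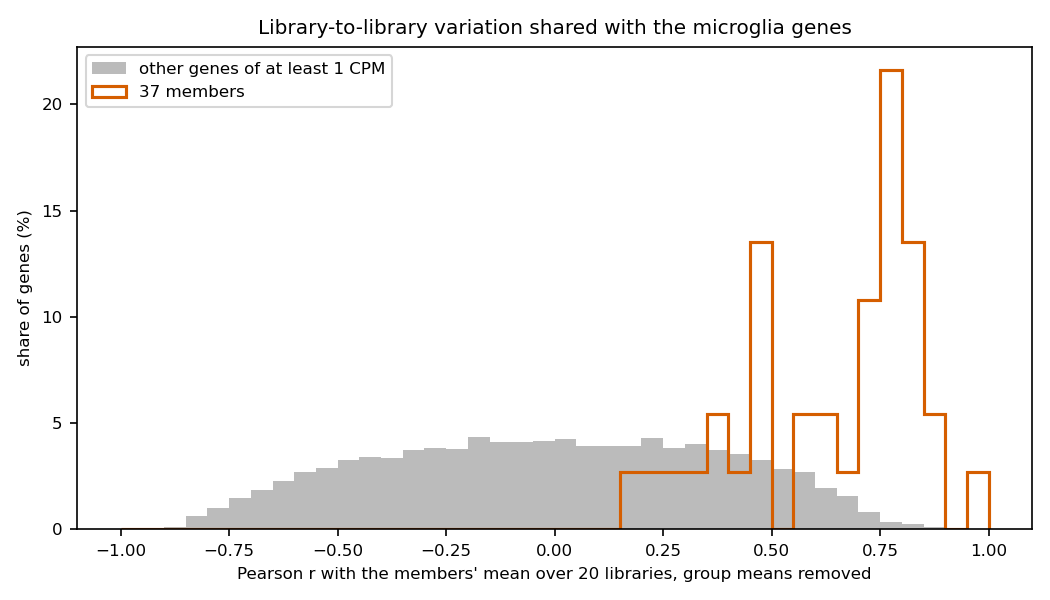
Share of genes (y axis, %) by Pearson r with the members' mean log2 CPM over 20 libraries, group means removed (x axis), for the 37 members (orange line, each against the mean of the other 36) and 11984 other genes (grey). Members have a median r of 0.73 and other genes one of -0.01.

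Pairs that act together or lie side by side were compared in the same way. The C1q chains had r between 0.82 and 0.86 in pairs, Trem2 with Tyrobp had r = 0.80, Selplg with its neighbour Tmem119 also 0.80, Itgam with C3 0.77, Itgam with Itgb2 0.65 and P2ry12 with P2ry13 0.57. Tlr4 with its co-receptor Cd14 had r = 0.13, with Cd14 at 7 to 28 counts in a library. Csf1r had r = 0.60 with Spi1, 0.66 with its ligand Csf1 and -0.60 with its other ligand Il34, which neurons make. Members that followed the mean least were Inpp5d (0.19), Tmem119 (0.24), Gpr34 (0.30), Cd14 (0.33), Tlr4 (0.35), Tlr2 (0.38) and Aif1 (0.42). Cd14 and Tlr4 are rare, but Inpp5d, Tmem119, Gpr34 and Aif1 had 14371, 10530, 9687 and 7333 counts over all libraries.

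Outside the list, the 10 genes most like the members' mean by this r were Tmem176a (0.90), P3h1 (0.88), the Src-family kinase Lyn (0.88), Abi3 (0.87), Dpp7 (0.87), Pld4 (0.87), Edem2 (0.86), Tmem176b (0.86), Cd99 (0.86) and Zfand2b (0.85). Those most opposite were Acsl4 (-0.90), Ube2k (-0.89), Fbxo33 (-0.88), Tmx4 (-0.87) and Necap1 (-0.87). Of all other genes, 12.8% had r below -0.5, and the members' mean had a correlation of size 0.67 with the first principal component of all genes scaled alike, which held 21.8% of the variance. Mean levels of other cell types followed it as well, with r of 0.66 for 6 astrocyte genes, 0.54 for 8 oligodendrocyte genes, 0.51 for 6 endothelial genes, 0.48 for border macrophages, 0.15 for medium spiny neurons and -0.21 for cortical neurons. How much of the members' common variation is particular to microglia was not tested.

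Genes of neighbouring pathways had 0 genes called by edgeR in every list and contrast. A second set of 8 genes, listed for microglia identity, had negative values for 8 of 8 in Abx vs H2O (median -0.16). It followed the members' mean with r = 0.85. Its most abundant genes were Cst3 and Bin1, with means of 1402 and 384 CPM in Abx. Bin1 had the lowest value of the set, -0.26 ± 0.14 (SE). Which cells these transcripts came from was not tested, and the set was not fitted with the covariates. Of 14 genes of Trem2 and immunoreceptor signalling, 11 were negative in Abx vs H2O and 13 positive in Abx_SCFA vs Abx. The high-affinity Fc receptor Fcgr1a ranged from 1.09 to 2.73 CPM in Abx, from 1.70 to 2.94 in SCFA, from 1.75 to 2.55 in Abx_SCFA and from 2.37 to 2.98 in H2O, with -0.55 ± 0.22 in Abx vs H2O (unadjusted p = 0.0193, adjusted p = 0.563). Fgr, a Src-family kinase, had -0.56 ± 0.26 in Abx vs H2O and 0.79 ± 0.35 in the interaction. The kinase Syk, which receives the Tyrobp signal, averaged 11.4 ± 1.35, 11.9 ± 0.743, 11.6 ± 1.29 and 11.2 ± 1.36 CPM in Abx, SCFA, Abx_SCFA and H2O.

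Among ligands of microglial receptors, Il34 averaged 58.5 ± 2.71 CPM in Abx, 56.0 ± 7.56 in SCFA, 58.1 ± 8.72 in Abx_SCFA and 53.4 ± 6.39 in H2O (SD). Cx3cl1, the fractalkine that Cx3cr1 binds, averaged 672 ± 45.6, 631 ± 93.5, 691 ± 92.6 and 627 ± 84.5 CPM in the same order (SD). Which cells made the ligands given here was not tested. Cd200 and Cd47, which restrain microglia through their own receptors, had log2 fold changes of -0.01 ± 0.11 and 0.08 ± 0.06 in Abx vs H2O. Csf1 ranged from 8.77 to 18.3 CPM in Abx, from 11.4 to 23.6 in SCFA, from 13.3 to 19.3 in Abx_SCFA and from 16.3 to 25.01 in H2O, with -0.48 ± 0.21 in Abx vs H2O (unadjusted p = 0.0343, adjusted p = 0.563, edgeR). Tgfb1, needed for the mature state of microglia, ranged from 9.40 to 13.3 CPM in Abx, from 12.2 to 15.2 in SCFA, from 12.2 to 14.8 in Abx_SCFA and from 13.4 to 14.4 in H2O. It had -0.30 ± 0.10 in Abx vs H2O (unadjusted p = 0.00602), 0.29 ± 0.10 in Abx_SCFA vs Abx (unadjusted p = 0.00664) and 0.32 ± 0.13 in the interaction, with adjusted p of 0.563, 0.999 and 0.622. Axl, an engulfment receptor related to Mertk, had 0.17 ± 0.06 in SCFA vs H2O (unadjusted p = 0.0131).

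Among Toll-like receptor signalling genes, 11 of 14 were negative in Abx vs H2O (median -0.14). Tlr1, the partner of Tlr2, was rare, from 0.317 to 0.627 CPM in Abx, from 0.472 to 0.871 in SCFA, from 0.688 to 1.07 in Abx_SCFA and from 0.403 to 1.04 in H2O. Its log2 fold changes were -0.83 ± 0.30 in Abx vs H2O, 0.90 ± 0.30 in Abx_SCFA vs Abx and 1.15 ± 0.40 in the interaction, with unadjusted p of 0.0123, 0.00668 and 0.00884 (edgeR). The Tlr4 partner Ly96 averaged 1.80 ± 0.511, 1.65 ± 0.482, 1.69 ± 0.641 and 1.62 ± 0.281 CPM in Abx, SCFA, Abx_SCFA and H2O. Rela, a subunit of NF-kB, had -0.19 ± 0.09 in Abx vs H2O, and Tlr3, a sensor of double-stranded RNA, -0.28 ± 0.12 in SCFA vs H2O. Of 19 cytokine and inflammasome genes, 11 passed the filter. Casp1, the inflammasome protease, averaged 3.60 ± 0.603 CPM in Abx, 3.97 ± 0.519 in SCFA, 4.25 ± 0.410 in Abx_SCFA and 5.26 ± 2.00 in H2O, with -0.54 ± 0.20 in Abx vs H2O and -0.40 ± 0.18 in SCFA vs H2O. Pycard, its adaptor, had 0.38 ± 0.17 in Abx_SCFA vs Abx, and the receptor Il10ra had -0.33 ± 0.15 in SCFA vs H2O.

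A further list drawn up around complement held 20 genes that passed the filter. Of these, 15 were negative and 5 positive in Abx vs H2O (median -0.13), and 15 positive and 5 negative in the interaction (median 0.16). The list also holds the C1q-like genes C1ql1, C1ql2 and C1ql3 and the engulfment receptor Megf10, so these counts are not of complement components alone. The widest values belonged to C1ql3, a synaptic C1q-like protein made by neurons rather than a complement component. It ranged from 6.25 to 48.2 CPM in Abx, from 7.56 to 72.2 in SCFA, from 9.91 to 21.97 in Abx_SCFA and from 4.74 to 10.8 in H2O. Its log2 fold change was 1.92 ± 0.63 in Abx vs H2O and 2.01 ± 0.60 in SCFA vs H2O. In edgeR the unadjusted p was 0.00734 and 0.00345, and the adjusted p 0.563 and 0.247. The 7 cortical genes had medians of 2.28 and 2.73 in the same comparisons, and a relation to them was not tested. Megf10, an engulfment receptor of astrocytes that binds C1q, had -0.39 ± 0.16 in Abx vs H2O. Of genes listed for the activated microglial state, 16 of 18 were negative in Abx vs H2O (median -0.13) and 15 of 18 positive in Abx_SCFA vs Abx (median 0.15). The 18 included Apoe and Fth1, with means of 4427 and 1704 CPM in Abx, while Clec7a and Cst7 did not pass the filter. Which cells these transcripts came from was not tested, so the values do not measure activation of microglia. Of the 18, Cd9, which oligodendrocytes also express, had -0.57 ± 0.21 in Abx vs H2O, and Lpl had -0.38 ± 0.13 in SCFA vs H2O (unadjusted p = 0.0143 and 0.00832). Folr2, a rare gene of border macrophages with 6 to 23 counts in a library, had 0.65 ± 0.28 in Abx_SCFA vs Abx. Its unadjusted p was 0.0323 and its adjusted p 0.999 (edgeR). It lay between 0.612 and 0.980 CPM in Abx_SCFA and between 0.395 and 0.627 in Abx. Of the 7 border macrophage genes tested, 5 were positive and 2 negative in this comparison (median 0.18), with -0.65 ± 0.53 for Siglec1.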

How the data were processed

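The authors deposited 1 table of whole-number counts per gene symbol for 20 libraries, with no values normalised. Per the labels' protocols, polyA RNA was extracted with an RNeasy kit and cDNA made with a SMARTer kit. The submitters' processing notes list STAR 2.4.0, FastQC 0.11.6 and limma as tools, with Rnor_6.0 as the genome build. Which tool counted the reads, with which annotation and strand setting, is not given in the sources used here, so reads of overlapping or near-identical genes cannot be assigned with certainty, and levels are not compared per length. In R 4.3.3, edgeR 4.0.16 was fitted to all 4 groups in 1 model with TMM scaling, robust quasi-likelihood dispersion and 16 residual degrees of freedom. The filter on low counts was filterByExpr, set to a minimum of 10 counts and a total of 15. The p-values were adjusted by Benjamini-Hochberg over 12846 genes and called below 0.05. SE came from the F statistic, and a prior count of 2 went into log2 CPM.

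Groups came from the treatment labels. Replicate numbers only name libraries, and the labels do not say which rats shared a cage. The p-values set group differences against the spread between these libraries and treat the libraries as independent, cage mates included. All 190 library pairs differed by more than sampling noise. DESeq2 1.42.0, limma-voom (limma 3.58.1), RLE scaling, other filters, covariates and left-out libraries were the alternatives. Depth ran from 17525358 to 25731636 counts, and floors cover counting error only. Members and lists were chosen with earlier results of these data known. Values by library, with SCFA given as lowest, median and highest, are printed for the member of each role block with the most counts and for members with an unadjusted p below 0.05. Genes of other lists are named if they have such a p, at most 3 per list, or if they are a ligand or partner of a member. A result that this rule would name is not reported here. Markers of oligodendrocytes, neurons, astrocytes and endothelium are reported as lists only. The sensing receptor and identity block, and the others, are groupings by known role.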

Additional observations from a re-analysis of the deposited data

Results flagged for a closer look

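In 2 of 148 sets of a member in a group of 4 to 6 libraries, 1 library stood apart from the others by more than a Dixon test at 95% allows. Chance gives about 1 such case in 20 groups, a higher rate than the 2 in 148 found here. Laptm5, the lysosomal membrane protein, had 52.3 CPM in H2O replicate 5, against 38.1 to 41.4 CPM in the other H2O libraries. Inpp5d, the inositol phosphatase, had 30.0 CPM in Abx_SCFA replicate 3, against 33.6 to 34.7 CPM in the other Abx_SCFA libraries.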

How the results depend on the processing

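Of the 37 members, 0 were called in any of 7 comparisons by edgeR or by any of 31 alternatives that could be fitted, with a smallest adjusted p of 0.0855. That value belonged to Inpp5d in SCFA vs H2O. Its log2 fold change there ran from -0.14 to 0.48 and changed sign in 1 of 30 alternatives. The members' median log2 fold change kept its sign in all alternatives in Abx vs H2O (-0.16 to -0.0075), Abx_SCFA vs Abx (0.03 to 0.14) and the interaction (0.04 to 0.21). It changed sign in 3 of 30 alternatives in SCFA vs H2O (-0.10 to 0.03), in 6 of 30 in Abx_SCFA vs H2O (-0.11 to 0.03) and in 5 of 30 in Abx_SCFA vs SCFA (-0.03 to 0.08), and the cause was not tested. Leaving out 1 library gave -0.16 (without H2O replicate 4) to -0.06 (without H2O replicate 5) in Abx vs H2O, -0.10 (without SCFA replicate 1) to 0.0079 (without SCFA replicate 5) in SCFA vs H2O, -0.08 (without H2O replicate 2) to 0.02 (without H2O replicate 5) in Abx_SCFA vs H2O, 0.03 to 0.14 in Abx_SCFA vs Abx, -0.03 to 0.08 in Abx_SCFA vs SCFA and 0.08 to 0.21 in the interaction. No paired analysis was possible because the rat numbers of the labels are not shared between groups. Cd14, Ly86 and Cd68, with 7 to 82 counts in a library, are limited by depth.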
